A study of Homo sapiens with 93 samples.

Results

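The genes described here encode 10 surface proteins of B cell activation and costimulation: CD86, CD80, CD70, CD27, CD40, ICAM1, CD83, FCER2, CR2 and MS4A1. They were chosen by name and found by their Ensembl identifiers, with no threshold on a measured value, and all 10 were present among the 14000 features of the count table. The histone mark H3K36me3, in which lysine 36 of histone H3 carries 3 methyl groups, was measured by CUT&Tag, in which an antibody brings a transposase to the mark and the DNA it cuts is sequenced. The samples were 93 lymphoblastoid cell lines, made from human B cells by infection with Epstein-Barr virus (EBV), with 1 library per line. Per the labels, all lines shared the same medium with 20% serum, were grown in 4 batches of roughly 20 to 35 lines, had 100000 cells frozen for the assay, and went through 14 PCR cycles. The batch of each line is not stated in those labels, so culture batch and line cannot be told apart. The labels name no treatment and the lines form 1 group, so the comparisons are between lines and between genes.

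H3K36me3 is deposited by SETD2 travelling with elongating RNA polymerase II, and it lies over the bodies of transcribed genes. The genes studied here are well known in EBV-immortalised B cells. The viral protein LMP1 imitates a CD40 receptor that is always on and signals through NF-kB, and the viral protein EBNA2 acts through the DNA-binding protein RBPJ, with FCER2 and CR2 among its known targets. CD80 and CD86 are the ligands through which B cells costimulate T cells, CD70 and CD27 are a ligand and its receptor, and ICAM1 is the adhesion partner of the integrin LFA-1.

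The shallowest library held 2842955 counts, the median one 14883653 and the deepest 24325746. No 2 libraries agreed within sampling noise: chi-square divided by its degrees of freedom was at least 5.88 in each of 4278 pairs. Each line had its own library, so p-values measure the spread between libraries, in which line, culture and technical differences are held together. MS4A1 was the only defining B cell marker that could be matched by name, and it had at least 90 counts in every line. Markers of other cell types were not analysed here. Libraries were made from bulk cells, so the share of cells that carry the mark at a gene and the amount per cell cannot be told apart. The rows of the 10 members followed the chromosomes in text order (1, 11, 12, 19, 20, 3, 6) and, on chromosomes 3 and 19, the RefSeq start positions.

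Promoter sequences of 5 members are shown, since the pathways named above act through NF-kB and RBPJ. RefSeq (GRCh38.p14) promoter sequences were at hand for 7 of the 10 members, in 10 windows. None was at hand for CD70, CD40 and MS4A1, which are named only. The 250 bases before each start were searched on both strands for the NF-kB consensus GGGRNYYYCC and for TGGGAA, the core of the RBPJ site. In the consensus R is A or G, Y is C or T, and N is any base. Only exact matches were counted, so a window without a match can still hold a site that departs from these letters. Sequences are written 5′ to 3′ on the gene's strand, and capitals mark the matches. Whole windows are given for FCER2 at its outer start (chr19:7702132-7702381, minus strand), with TGGGAA at positions -186 to -181 from the start. They are also given for ICAM1 (chr19:10270870-10271119, plus strand) and CD80 (chr3:119559615-119559864, minus strand), which hold no exact match to either motif.
FCER2: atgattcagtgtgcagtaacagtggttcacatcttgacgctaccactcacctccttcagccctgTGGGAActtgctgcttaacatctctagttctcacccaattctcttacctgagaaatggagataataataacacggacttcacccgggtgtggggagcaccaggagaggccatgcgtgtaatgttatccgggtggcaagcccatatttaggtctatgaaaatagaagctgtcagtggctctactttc
ICAM1: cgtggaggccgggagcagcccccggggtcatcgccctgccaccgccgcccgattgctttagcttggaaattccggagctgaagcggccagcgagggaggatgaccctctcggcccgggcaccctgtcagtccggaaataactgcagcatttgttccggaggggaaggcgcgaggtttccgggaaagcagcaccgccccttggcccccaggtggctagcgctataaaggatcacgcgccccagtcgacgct
CD80: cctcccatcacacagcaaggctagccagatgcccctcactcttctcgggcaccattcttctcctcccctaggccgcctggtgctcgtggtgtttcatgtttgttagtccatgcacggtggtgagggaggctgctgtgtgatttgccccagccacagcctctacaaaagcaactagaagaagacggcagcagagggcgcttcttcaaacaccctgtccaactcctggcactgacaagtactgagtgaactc

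Inner starts of CD83, CD86 and FCER2 also held matches, shown as stretches of 30 bases. CD83 has overlapping NF-kB matches on both strands at -76 to -66 (chr6:14117686-14117715, plus strand) and 1 on the other strand at -50 to -41 (chr6:14117712-14117741, plus strand). CD86 has overlapping NF-kB matches within -82 to -71, where TGGGAA on the other strand overlaps them (chr3:122077693-122077722, plus strand). The same CD86 window has a separate TGGGAA on the gene's strand at -136 to -131, which is not printed. FCER2 has an NF-kB match at -222 to -213 (chr19:7699644-7699673, minus strand) and TGGGAA at -202 to -197 (chr19:7699626-7699655, minus strand).
CD83, first: gctgcccgccGGGGAATCCCCcgggctggc
CD83, second: tggcgcgcagGGAAGTTCCCgaacgcgcgg
CD86: gctccctttGGGGGTTTCCCAgggctttac
FCER2, first: gaagagaagcGGGGCTCCCCagtccctctc
FCER2, second: ccagtccctctcTGGGAAagagggtgaatt

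Of the 10 windows, 3 held the NF-kB consensus, against 6.88% of 35116 windows of the same length, and 4 held TGGGAA, against 20.8%. Both starts of FCER2 held TGGGAA, as did the inner start of CD86 and the start of CD27. The window of CR2, also named above as an EBNA2 target, held no exact match to either motif. A match describes letters in these windows and does not show binding, and the table has 1 count per feature and line, with none for the promoter alone.

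The members covered much of the range of the mark. Among all features, CD80 was at percentile 92.2 by mean log2 CPM (counts scaled to library size, as CPM, log2 scale), CD86 at 80.6 and ICAM1 at 73.6. CD83 stood at 62.5, CR2 at 55.5, MS4A1 at 51.4, CD70 at 47 and CD40 at 46.7. FCER2, at 33.1, and CD27, at 23.9, were lowest of the members. The lowest count of any member in any line was 32, in CD27 and in FCER2. All 10 members passed the filter on low counts.

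**Figure D1:**
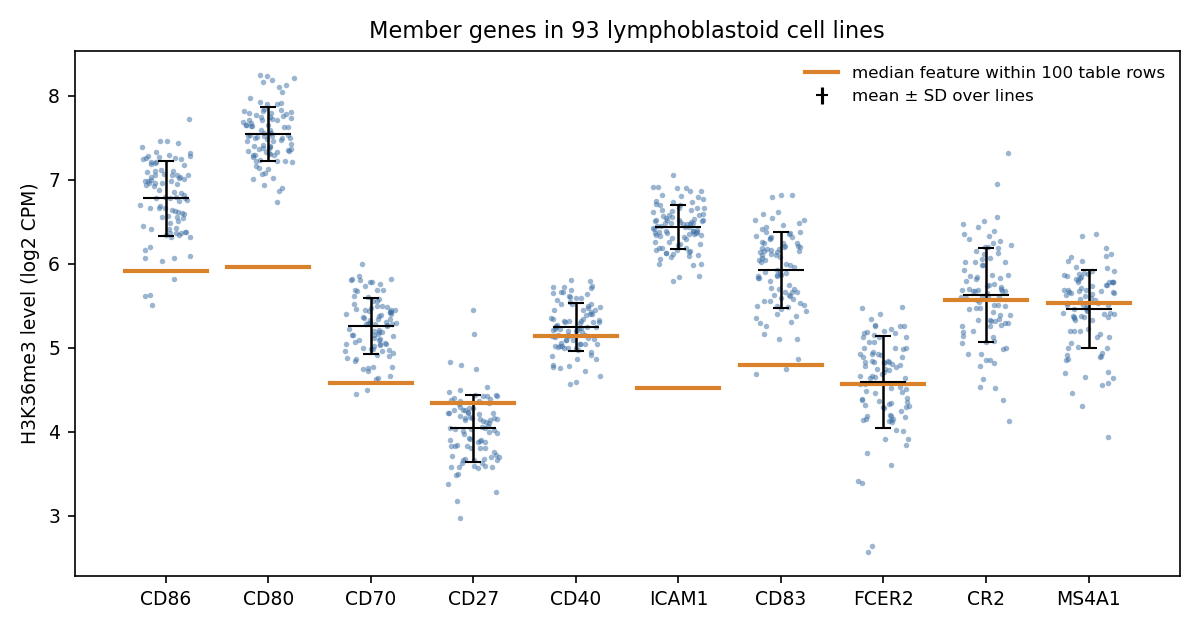
H3K36me3 level in log2 CPM (y axis) of each member (x axis), with 1 point per line (n = 93), the mean ± SD in black and, in orange, the median feature within 100 rows of the member in the table. CD80 is highest, CD27 lowest, and FCER2 has 2 lines far below the others, the lower at 2.57.

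Levels of different genes depend on gene length, so they were also divided by the RefSeq span. On the scale of log2 CPM per kilobase, ICAM1 (2.48 ± 0.26, SD, n = 93) and CD80 (2.40 ± 0.32) were highest, and ICAM1 was above CD80 in 60 of 93 lines. CD70 followed at 2.01 ± 0.34 and was above CD40 in 85 of 93 lines, although their means lay within 1 SD of each other. CD40 (1.72 ± 0.29), CD83 (1.63 ± 0.45) and MS4A1 (1.56 ± 0.46) lay within 1 SD of each other, with CD40 above CD83 in 49 lines and CD83 above MS4A1 in 50. CD27 (1.07 ± 0.40), FCER2 (0.85 ± 0.55), CD86 (0.74 ± 0.44) and CR2 (0.47 ± 0.56) were lowest, and neighbours in that order also lay within 1 SD of each other. CD86, the second by total level, was thus 9 in order per kilobase, and its RefSeq span of 65775 bases is the longest of the 10. The interval over which reads were counted is not known here, so the span stands in for it.

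The level of the table's neighbourhood differed between members and enters their order. Against the median feature within 100 rows, ICAM1 was 1.91 log2 units higher, CD80 1.58, CD83 1.14, CD86 0.86 and CD70 0.68. CD40 (0.10), CR2 (0.05) and FCER2 (0.02) were level with their surroundings. MS4A1 (-0.08) and CD27 (-0.30) were below theirs. CD86, the second by total level, was thus only the fourth against its surroundings.

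Each member was then compared with the spread that features of its count level show between lines. By this test 7 of 10 members varied more than the trended dispersion (edgeR goodness-of-fit test, adjusted p under 0.05), against 18.6% of the 13915 features tested. They were CR2, FCER2, CD83, CD86, MS4A1, CD27 and CD70. ICAM1, CD40 and CD80 did not pass. On the log2 scale, dispersion relative to the trend had a median of 1.14 over the members and -0.55 over all features.

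**Figure D2:**
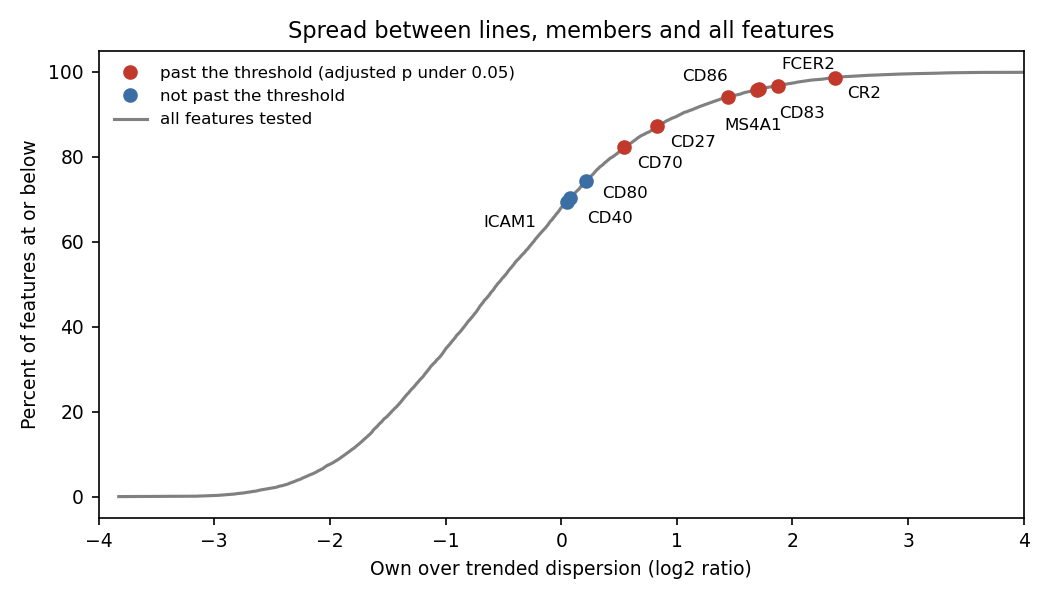
Cumulative share of the features tested (y axis, percent) by log2 ratio of own to trended dispersion (x axis), with the 10 members marked, red where the goodness-of-fit test passed. CR2 stands furthest right, at 2.37, and ICAM1 furthest left, at 0.05.

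The ligands of CD28 and CTLA4 differed from each other in this respect. CD86 (ENSG00000114013.16, chr3:122055362-122121136) ran from 45.3 CPM in the lowest line through a median of 113 to 210 in the highest. It had 3 lines more than 2-fold below its median, and its coefficient of variation (SD over mean) was 28.6%. Its own dispersion was 3.23 times the trend (adjusted p = 3.75e-21, edgeR goodness-of-fit test). CD80 (ENSG00000121594.12, chr3:119524293-119559614) ran from 106 through 184 to 305 CPM, with no line beyond a factor of 2 from its median. Its own dispersion was 1.16 times the trend and did not pass (adjusted p = 0.545), although it did pass with a local offset for its part of the table (adjusted p = 0.00589). The difference between the dispersions of CD86 and CD80 was not tested.

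The ligand and receptor pair was moderately variable. CD70 (ENSG00000125726.11, chr19:6581648-6591150), the ligand, ran from 21.7 through 38.8 to 63.7 CPM. Its own dispersion was 1.46 times the trend (adjusted p = 0.0239), and it passed in 3 of 11 alternatives, so the call changed with the processing. CD27 (ENSG00000139193.3, chr12:6443892-6451713), the receptor and a marker of memory B cells, ran from 7.71 through 16.4 to 43.4 CPM. Its own dispersion was 1.78 times the trend (adjusted p = 0.000513). Its coefficient of variation was 30.8%.

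CD40 and ICAM1 varied least of the members, with coefficients of variation of 19.9% and 18.3% against a median of 20.5% over all features. That median covers features of every count level. By dispersion relative to the trend, CD40 was at percentile 70.3 and ICAM1 at 69.4 of all features, so both were above the median feature. CD40 (ENSG00000101017.14, chr20:46118314-46129858), the receptor through which T cells drive B cell activation, ran from 23.6 through 37.7 to 55.7 CPM, a 2.36-fold range. ICAM1 (ENSG00000090339.9, chr19:10271120-10286615) ran from 55.5 through 87 to 133 CPM, a 2.39-fold range. Neither had a line beyond a factor of 2 from its median. Their own dispersions were 1.06 and 1.04 times the trend (adjusted p = 1 for both, edgeR goodness-of-fit test).

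Relative to the trend, CR2 had the highest log2 ratio of own to trended dispersion (2.37), followed by FCER2 (1.87), CD83 (1.71) and CD86 (1.69). The order changed with the libraries used: MS4A1 (1.90) was above CD83 (1.53) and FCER2 (1.46) among the 46 shallower ones. Among the 47 deeper ones FCER2 (2.21) was above CR2 (2.18), and CD86 (2.04) was above CD83 (1.81). CR2 (ENSG00000117322.18, chr1:207454328-207489892) encodes CD21, which binds complement fragments on antigen and is the receptor by which EBV enters B cells. It ran from 17.3 through 50.3 to 159 CPM, a 9.22-fold range, with 5 lines more than 2-fold below the median and 2 more than 2-fold above. Its own dispersion was 5.16 times the trend (adjusted p = 3.07e-46), at percentile 98.7 of all features. CR2 was past the threshold in 11 of 11 alternatives, and it was the only member among DESeq2's dispersion outliers, a criterion that 1.83% of features met.

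FCER2 (ENSG00000104921.15, chr19:7688776-7702131) encodes CD23, the low-affinity IgE receptor. It ran from 5.80 through 25.3 to 44.8 CPM, and its tail was towards low values, with 5 lines more than 2-fold below the median and none more than 2-fold above. Its own dispersion was 3.66 times the trend (adjusted p = 3.28e-23). CD83 (ENSG00000112149.10, chr6:14117256-14136918), a marker of activated B cells and mature dendritic cells, ran from 25.7 through 63.4 to 112 CPM. It had 3 lines more than 2-fold below the median, and its own dispersion was 3.27 times the trend (adjusted p = 7.26e-21). In these 2 genes, as in CR2 and CD86, the ratio of the 90th to the 10th percentile of lines was above 2: 2.28 for FCER2, 2.14 for CD83, 2.58 for CR2 and 2.08 for CD86. It was 2.13 for MS4A1.

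MS4A1 (ENSG00000156738.18, chr11:60455847-60470752) encodes CD20. It ran from 15.1 through 46.2 to 81.9 CPM, and its own dispersion was 2.73 times the trend (adjusted p = 1.5e-13). MS4A1 and CD27 lie in a stretch of the table, the rows after 1900 up to 3200, where a step down was fitted in each library. The fit used deviations of log2 CPM from the mean of each row, less the library's mean deviation outside the stretch. The gene and the rows nearest to it were left out. Neither the fit nor the medians that follow were corrected for the library properties treated later. The fit placed 1 step per library at the best-fitting row, with a shared size that came to 0.85 log2 units. Every library is given a step by this fit, so it does not test whether a step is there. The last row before that step ranged from 2017 to 3047. MS4A1, in row 2371, came before the step in 83 lines and after it in 10. Its median was 5.61 log2 CPM in the 83 lines (3.93 to 6.36) and 4.68 in the 10 (4.46 to 5.01), so the 10 lines fell within the lower part of the range of the 83. CD27, in row 2935, came before the step in 3 lines, with a median of 5.16 (4.47 to 5.45), and after it in 90, with a median of 4.04 (2.97 to 4.83). The place of the fitted step thus moved with the level of MS4A1, and for CD27 this rests on 3 lines. The fitted step lay within 50 rows of CD27 in 9 lines and of MS4A1 in 4, so the side of those lines is uncertain. The part of this stretch in the spread of both genes is measured next with nearby rows.

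**Figure D3:**
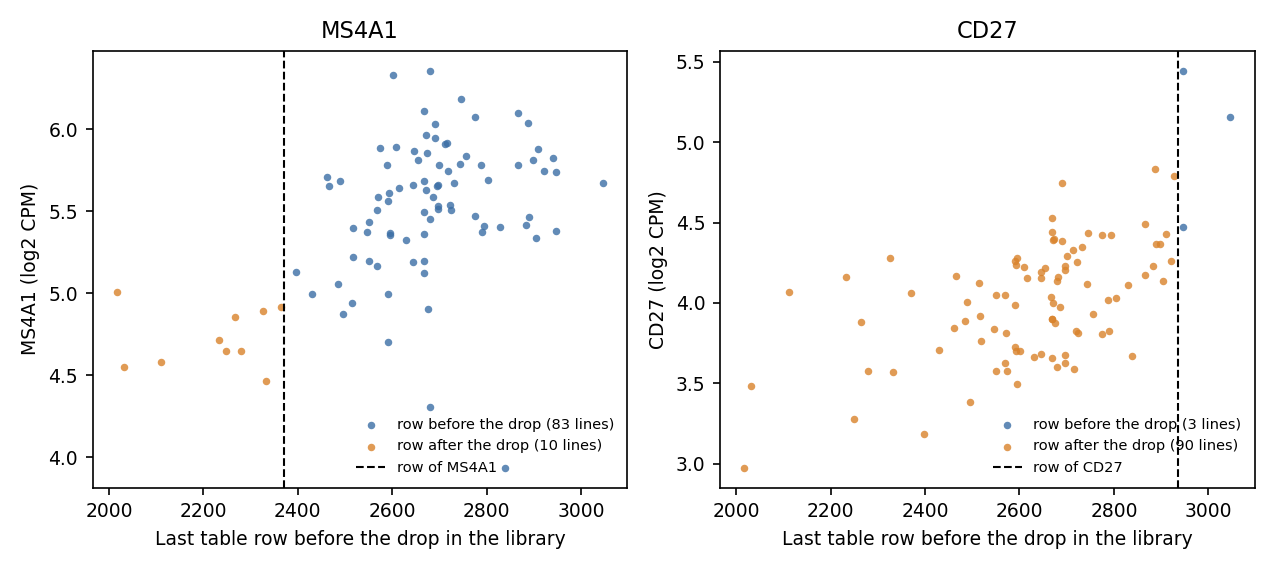
Level in log2 CPM (y axis) of MS4A1 (left) and CD27 (right) in each line against the last table row before the step in that library (x axis). The dashed line is the row of the gene, and colour tells lines in which the gene lies before or after the step. Medians differ by 0.93 for MS4A1 and by 1.11 for CD27, which has only 3 lines before the step.

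The spread of MS4A1 and CD27 was measured again with a local offset, which takes the deviation of nearby rows from each library. MS4A1 then had a log2 ratio of own to trended dispersion of 0.97 in place of 1.45 (adjusted p = 6.65e-06). CD27 had 0.76 in place of 0.83 (adjusted p = 0.00241). Both were still past the threshold. MS4A1 did not pass among the 47 deeper libraries (adjusted p = 0.212), and CD27 did not among the 46 shallower ones (adjusted p = 0.793).

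The level of most members moved with properties of the library. Dynamic range, the median log2 CPM of the most covered features minus that of the least covered (20% each), was positively related to 9 of 10 members (edgeR quasi-likelihood test), against 40.4% of all features, and negatively to none, against 38%. The largest coefficient was 0.24 log2 units per SD, in MS4A1, and CD86 was the member that did not pass (0.083, adjusted p = 0.11). Among the 46 shallower libraries 2 of 10 members passed in either direction, against 59.5% of all features, and among the 47 deeper ones 9 did, against 74%. CD27, CD40, ICAM1 and FCER2 were higher in deeper libraries, against 25.4% of features, and CD80 was lower, against 42%. FCER2 had the largest coefficient for depth, 0.19 per SD. Both properties were therefore removed before members were compared with each other, and the levels so corrected are called residual levels.

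Over the 93 lines, 20 of the 45 pairs of members varied in the same direction and none in opposite directions. A pair was counted when it passed in the fits of both its members, each of which tests all other features on 1 member (edgeR quasi-likelihood test, adjusted over all features). In each member's own fit, the numbers of other members that varied with it in the same direction were 7 of 9 for ICAM1 against 24.8% of all features, 7 for CD80 against 21.5% and 7 for MS4A1 against 23.1%. CD70 had 6 against 29%, CD40 had 5 against 22.9%, CD27 had 5 against 19.1% and CD86 had 4 against 16.8%. CD83 had 2 of 9 against 5.48%, FCER2 had 2 against 7.09%, and CR2 had 1 against 0.546%. In no fit did a member move against another past the threshold. The shares of all features that did so were 27% with ICAM1, 24.1% with CD80, 29.5% with CD70, 26.5% with CD40, 23.3% with CD27, 15.8% with CD86 and 18.3% with MS4A1. They were 8.37% with CD83, 6.5% with FCER2 and 0.302% with CR2.

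**Figure D4:**
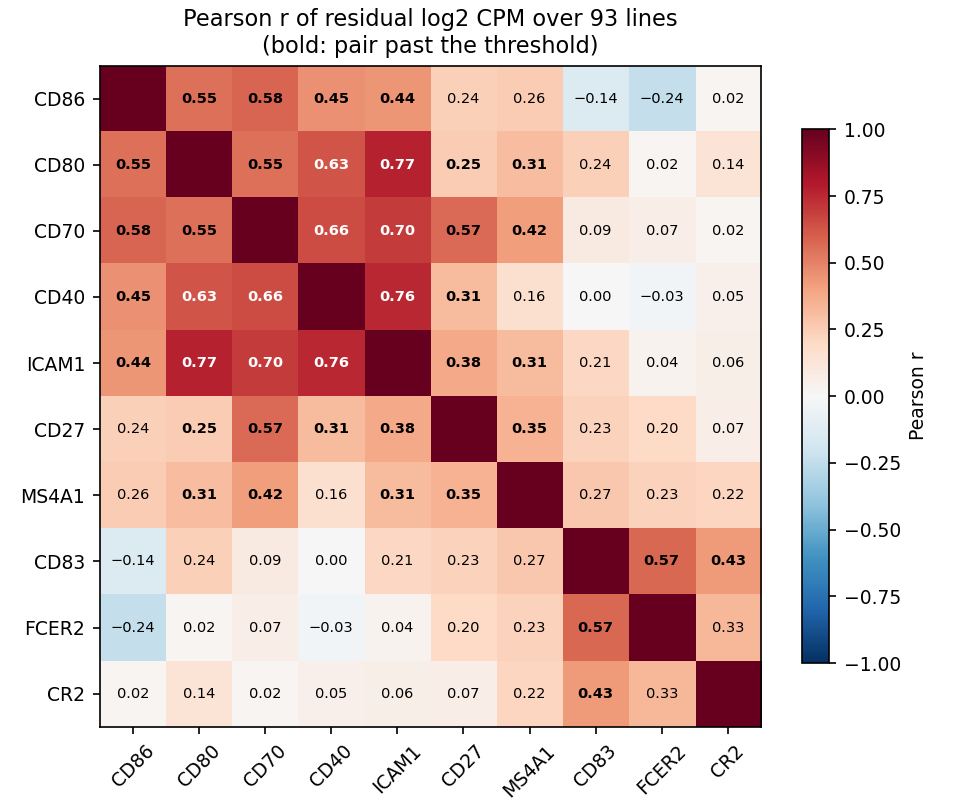
Pearson r of residual log2 CPM over 93 lines for each pair of members (both axes), coloured from blue (-1) to red (1), in bold where the pair passed the test. CD86, CD80, CD70, CD40 and ICAM1 form a block with values from 0.44 to 0.77, and CD83, FCER2 and CR2 a smaller one from 0.33 to 0.57.

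A pair of sets could be seen in the correlations, described here without a test because they were picked from these values. CD86, CD80, CD70, CD40 and ICAM1 had 10 of 10 pairs past the threshold, with r from 0.44 to 0.77 and a median of 0.61. CD27 and MS4A1 were put in neither set, although they covaried with part of this one. CD27 passed with CD80 (r = 0.25), CD70 (0.57), CD40 (0.31) and ICAM1 (0.38) and not with CD86. MS4A1 passed with CD80, CD70 and ICAM1 and not with CD86 or CD40. Neither passed with CD83, FCER2 or CR2. CD83, FCER2 and CR2 had 2 of 3 pairs past it, with r from 0.33 to 0.57. Of the 15 pairs between the sets none passed, with r from -0.24 to 0.24 and a median of 0.039. Such a pair must also pass in the fit of CD83, FCER2 or CR2. There 5.48%, 7.09% and 0.546% of all features passed in the same direction, and 8.37%, 6.5% and 0.302% in the opposite one. The lack of passing pairs lies near those shares and does not by itself separate the sets. The sets were not sharply apart: CD80 with CD83 passed in 3 of 11 alternatives, ICAM1 with CD83 in 2 and CD80 with CR2 in 1, and CD83 passed in the single fits of CD80 (adjusted p = 0.0196, edgeR) and ICAM1 (adjusted p = 0.0233, edgeR). Many features followed these members too. The highest 5% of all features had r above 0.50 with ICAM1 and above 0.55 with CD70, and 8 of the 10 pairs of the larger set were above that level for both members. CD86 with ICAM1 and CD86 with CD40 were not. Promoter windows with an exact match to the NF-kB consensus were found in both sets, at the inner starts of CD86 in the first and of CD83 and FCER2 in the second. The outer starts of these genes held no such match. Of the first set, ICAM1 and CD80 held no exact match, and CD70 and CD40 had no window to search. Of the second set, CR2 held no exact match.

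ICAM1 and CD80, on different chromosomes, had the highest r of the 45 pairs. Their residual levels had r = 0.77 and Spearman's rho = 0.79 (p = 1e-05 for each, permutation test, the smallest that 100000 permutations can give; adjusted p = 6.18e-16, edgeR). The r was 0.77 without the 2 lines farthest from the CD80 median. With the covariates fitted again in each subset, it was 0.74 among the 46 shallower and 0.75 among the 47 deeper libraries. Ranked by r over 13914 features, CD80 was 13th for ICAM1 and ICAM1 was 3rd for CD80. For CD40, ICAM1 was the feature with the highest r of all 13914, at 0.76 (rho = 0.74, p = 1e-05 for each, permutation test; adjusted p = 1.93e-14, edgeR). Among features more than 20 rows away, the one most like ICAM1 was ENSG00000056558.11 (r = 0.87), which was also the second for CD80 (r = 0.78).

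CD70 joined this set through ICAM1 (r = 0.70) and CD40 (r = 0.66), and CD86 through CD70 (r = 0.58) and CD80 (r = 0.55). The CD86 correlations were less even across depth. With the covariates fitted again in each subset, CD86 and ICAM1 had r = 0.57 among the 46 shallower libraries. Among the 47 deeper ones r was 0.22 and the pair did not pass (adjusted p = 0.344, edgeR). CD80 and CD86 are ligands of the same receptors and lie in rows 10009 and 10033 of the table. They had r = 0.70 and 0.34 in the same subsets and did not pass in the deeper one (adjusted p = 0.118, edgeR). With its receptor CD27, CD70 had r = 0.57 (rho = 0.55, p = 1e-05 for each, permutation test; adjusted p = 1.39e-06, edgeR), and it passed in 8 of 11 alternatives. It did not pass with 5 principal components as covariates (r = 0.21, adjusted p = 0.59), with 10 (r = 0.24, adjusted p = 0.671) or among the 47 deeper libraries (r = 0.48, adjusted p = 0.0556, edgeR). CD70 was 13th of 13914 features by likeness to CD27, while CD27 was 573rd by likeness to CD70.

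CD83 and FCER2 had the highest r of the other set, r = 0.57 and rho = 0.44 (p = 1e-05 and 2e-05, permutation tests; adjusted p = 2.23e-05, edgeR). Each was 14th of 13914 features for the other. Without the 2 lines farthest from the CD83 median r was 0.48. Without the 3 lines lowest in residual FCER2, which are also the 3 lowest in residual CD83, it was 0.43 (n = 90). The pair passed among the 47 deeper libraries and did not among the 46 shallower (adjusted p = 0.0765, edgeR). CD83 and CR2 had r = 0.43 (rho = 0.33, p = 5e-05 and 0.00133, permutation tests; adjusted p = 0.017, edgeR), and passed in 7 of 11 alternatives. Without the same 3 lines the r of CD83 and CR2 was 0.32. FCER2 and CR2 had r = 0.33 and rho = 0.23, and did not pass in both fits (adjusted p = 0.165, edgeR). Without the same 3 lines the r of FCER2 and CR2 was 0.19. The feature more than 20 rows away most like FCER2, ENSG00000027697.15 (r = 0.75), was the third for CD83 (r = 0.63).

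**Figure D5:**
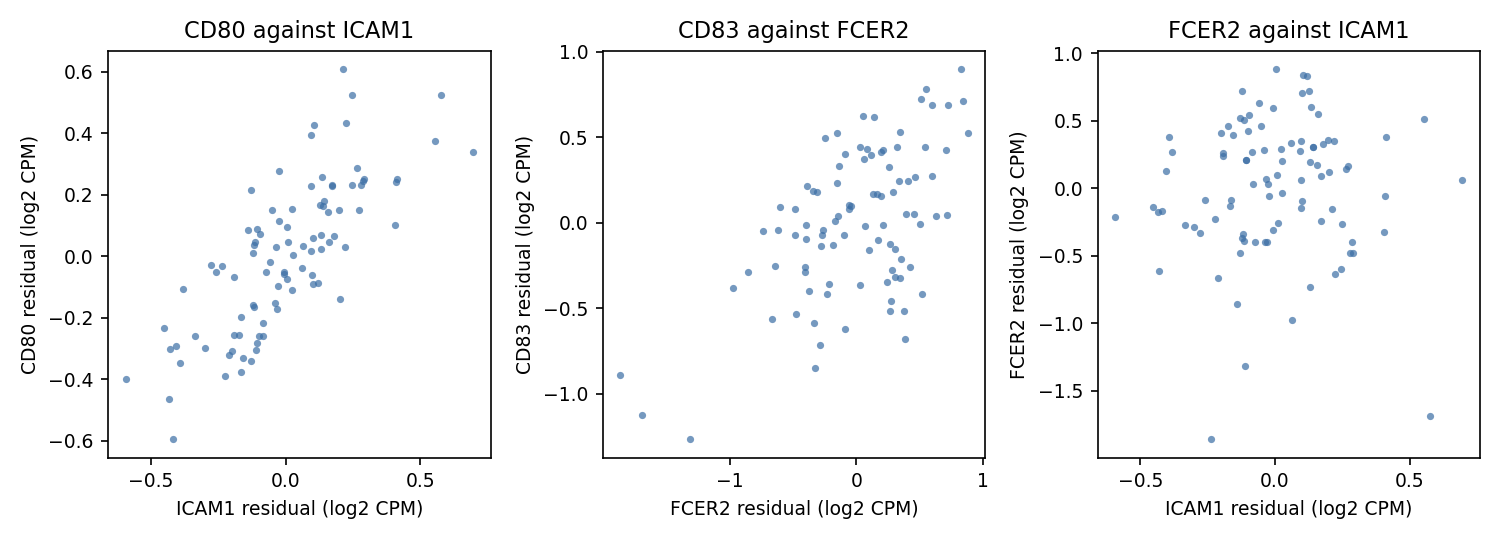
Residual log2 CPM in each of 93 lines for CD80 against ICAM1 (left, r = 0.77), CD83 against FCER2 (middle, r = 0.57) and FCER2 against ICAM1 (right, r = 0.039). In the middle plot 3 lines with low FCER2 also have low CD83.

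FCER2 and ICAM1, in rows 6820 and 6869 on chromosome 19, had r = 0.039 (p = 0.705, permutation test) and rho = 0.081 (p = 0.437, permutation test), and did not pass. CD86 and FCER2 had the lowest r of the 45 pairs, -0.24, which did not pass (adjusted p = 0.115, edgeR). MS4A1 passed with CD70 (r = 0.42), CD27 (0.35), ICAM1 (0.31) and CD80 (0.31). With the local offset MS4A1 no longer passed with CD70 (r = 0.25), CD80 (0.11) or ICAM1 (0.043), while with CD27 it still did (0.33). CD27 no longer passed with ICAM1 (r = 0.19).

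Principal components describe variation that many features share. The first 5 principal components of log2 CPM held 74.7% of the variance of CD70, 73.4% of CD80, 65.4% of ICAM1 and 64.1% of CD40, against a median of 55.9% over all features. They held 46.9% for CD86, 40.6% for FCER2, 37.5% for CD83 and 18.9% for CR2. With these 5 components in place of depth and dynamic range, 7 of the 45 pairs passed: CD86 with CD80, CD80 with CD40, CD80 with ICAM1, CD70 with CD40, CD70 with ICAM1, CD40 with ICAM1, and CD83 with FCER2. In that fit the share of all features that passed with a member ran from 0.0287% (CD27) to 3.72% (ICAM1). With 10 components 2 passed, CD80 with ICAM1 (r = 0.49) and CD80 with CD83 (r = 0.42), and the share of all features was at most 0.762% (ICAM1). CD80 with ICAM1 passed in 11 of 11 alternatives.

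Adjacent rows of the table were also compared with the members. CD86 had r = 0.89 with the row before it and 0.13 with the row after. CD70 had r = 0.80 with the row before, CR2 0.76 with the row after, and CD40 -0.48 with the row after. In RefSeq, ILDR1 overlaps CD86, TIMMDC1 and CSRP2P1 overlap CD80, TAPBPL and the antisense CD27-AS1 overlap CD27, and LIMASI and ICAM4-AS1 overlap ICAM1. The other 6 members have no overlapping gene. Reads of overlapping genes cannot be told apart without the counted interval and strand, which touches the values of CD86, CD80, CD27 and ICAM1.

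The deposited normal scores ranked lines much as the counts did, with Spearman's rho between score and log2 CPM from 0.976 (CD27) to 0.985 (CD70) over 93 lines. On the scores 21 of 45 pairs passed (limma), against 20 on the counts, and the share of all features that passed with a member ran from 1.01% (CR2) to 50.1% (CD70).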

How the data were processed

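H3K36me3 CUT&Tag libraries of 93 lymphoblastoid cell lines were analysed as 1 group. The counts were deposited by the authors as whole numbers per feature, and the scores were deposited as normal scores for the same features. The submitters' processing notes name HISAT2 2.2.1, bedtools and hg38. The counted interval, the read filters and the use of strand are not stated in the sources used here. No identifier of the table (0 of 14000) could be paired through the reference table. Symbols of the 10 members came from the selection rule, and all 10 were found by symbol in RefSeq (GRCh38.p14). The 6 companion lists and 9 marker lists fixed by symbol were therefore not used.

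Members and lists were chosen by name, but with earlier results of these data known. The naming rule took all members, the 3 features most like each member and its adjacent rows. Of features without a symbol, 2 are printed.

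Features with at least 10 counts in at least 47 lines were tested (13915 of 14000). Counts were scaled with TMM factors (edgeR 4.0.16, R 4.3.3; 0.919 to 1.05) and given as log2 CPM (prior count 2). Log2 library total and dynamic range were covariates. Extra spread was tested with edgeR's goodness-of-fit test against the trended dispersion. Covariation was tested with edgeR's quasi-likelihood test of every feature on 1 member's residual level. P-values were adjusted by the Benjamini-Hochberg method over all features, with a threshold of 0.05. A pair of members was called when it passed in both fits. Correlations had 100000 two-sided permutations, whose smallest p is 1e-05. The scripts were tested on simulated data. Alternatives were other filters, size factors from DESeq2 1.42.0, its dispersion outliers, a prior count of 0.5, other covariates, subsets of libraries and the deposited scores (limma 3.58.1). The local offset, each library's median deviation over rows 6 to 50 away, and the level against neighbouring rows were added after the data had been seen. The fit of the step and its stretch of rows were also not among the planned results. Promoter windows were read from RefSeq with Python 3.11.15.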

Additional observations from a re-analysis of the deposited data

How the results depend on the processing

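Of 45 pairs of members, 20 passed. Without covariates 32 passed, where 17.1% to 72% of all features passed with a member. With 5 principal components 7 passed and with 10 of them 2, where at most 3.72% and 0.762% of features did. The 46 shallower and the 47 deeper libraries, fewer samples each, gave 11 pairs each, of which 8 were shared. The number was 17 to 23 under the other 6 alternatives. The number of variable members, 7, was 1 by DESeq2's dispersion outliers, a stricter criterion by construction, and 5 to 7 elsewhere. Members following depth, 5, numbered 1 among shallower libraries and 2 among deeper ones, and members following dynamic range, 9, numbered 2 in the shallower ones; the cause was not tested. The median member level of 5.54 log2 CPM was 1.60 per kilobase and 0.39 against neighbouring rows, other scales by construction.

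Of log2 ratios of own to trended dispersion, that of ICAM1 changed sign to -0.053 with at least 100 counts, -0.36 with the intercept only, -0.47 and -0.66 with 5 and 10 components, -0.34 in the deeper libraries and -0.39 with the local offset. That of CD40 became -0.27, -0.54, -0.82 and, in the deeper libraries, -0.43, that of CD80 -0.071 and -0.081, and that of CD70 -0.55 and -0.65 (5 and 10 components). With 5 components r became -0.055 for CD80 and CD27, -0.078 for CD70 and MS4A1 and -0.029 for CD27 and MS4A1; with 10 it was -0.025 and -0.018 for the first 2. The cause was not tested. No paired analysis was possible because all lines form 1 group with no shared replicate numbers. Depth limits CD27 and FCER2 most, with 32 counts in their lowest lines; counting error alone is meant, since PCR reads are not independent molecules.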
